A study of Mus musculus with 12 samples.

Results

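The AP-1 transcription factors are encoded by 4 Fos genes (Fos, Fosb, Fosl1 and Fosl2) and 3 Jun genes (Jun, Junb and Jund), and these 7 genes were taken by symbol from the 24062 genes of a gene count table made from mouse hearts. Poly(A) RNA of 12 whole hearts was sequenced, with 3 hearts in each of 4 groups. WT and KI/KI hearts came from littermates aged 2 months, and KI/KI mice were homozygous in every tissue for the Lemd2 c.T38>G change, which was introduced with CRISPR-Cas9. Floxed and cKO hearts came from mice at postnatal day 1 (P1), both carrying loxP sites around the first exon of Lemd2. Floxed mice had no Cre, and cKO mice also carried Myh6-Cre, a recombinase driven by the α-myosin heavy chain promoter, so that Lemd2, an inner nuclear membrane protein gene, was deleted in cardiomyocytes while the other cells of the heart kept it. The comparisons asked how each Lemd2 model changed the AP-1 transcripts of the heart.

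AP-1 is a dimer of basic leucine zipper (bZIP) proteins. Fos proteins bind DNA only with a partner such as a Jun protein, whereas Jun proteins can also pair with one another. Fos, Fosb, Jun and Junb are immediate early genes, transcribed within minutes of growth factor, stretch or stress signals through kinases that act on factors already bound to their promoters. Fosl2, which encodes Fra-2, and Fosl1, which encodes Fra-1, are usually induced later, and Jund is transcribed in most resting cells. In the heart, AP-1 transcripts are known to rise with pressure overload.

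In P1 hearts, Fos, Junb, Fosb and Fosl2 rose in cKO hearts, and the sequences around the starts of Fos, Fosb and Junb are printed because these genes moved together. RefSeq promoter sequences (GRCm38.p6) were found for 6 of the 7 members; Fosl1 was the member without one. The RefSeq start matched the GENCODE start for Fos and Jun, lay 6 bases downstream of it for Fosb and 30 bases upstream of it for Junb, but lay 671 bases downstream of it for Fosl2 and 1210 bases upstream of it for Jund. The Fosl2 window thus lay inside the gene as GENCODE gives it, and no sequence is shown for Fosl2. Each stretch below covers 150 bases before the RefSeq start and the first 50 bases of the gene, on the strand of the gene, with capitals for TGACG, the core letters of the cyclic AMP response element (CRE), and for the TATA box TATAAA. The stretches lie at chr12:85473740-85473939 (plus strand) for Fos, chr7:19309996-19310195 (minus strand) for Fosb and chr8:84978699-84978898 (minus strand) for Junb.
Fos: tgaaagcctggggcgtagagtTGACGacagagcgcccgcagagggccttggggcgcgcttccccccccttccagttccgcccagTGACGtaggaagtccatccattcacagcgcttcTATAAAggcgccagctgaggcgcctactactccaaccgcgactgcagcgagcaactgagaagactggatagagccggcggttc
Fosb: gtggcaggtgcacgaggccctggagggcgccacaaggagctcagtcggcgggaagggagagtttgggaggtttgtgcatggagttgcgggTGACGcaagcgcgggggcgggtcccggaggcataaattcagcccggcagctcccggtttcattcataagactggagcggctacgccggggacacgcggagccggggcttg
Junb: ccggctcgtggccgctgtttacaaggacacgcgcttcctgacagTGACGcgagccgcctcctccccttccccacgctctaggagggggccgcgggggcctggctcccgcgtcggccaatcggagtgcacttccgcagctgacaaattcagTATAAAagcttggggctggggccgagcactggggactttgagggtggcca

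The search covered 250 bases before to 50 bases after each RefSeq start on both strands. TGACG began 129 and 66 bases upstream of the Fos start, 60 bases upstream of the Fosb start and 106 bases upstream of the Junb start. It was not found in the windows of Fosl2, Jun or Jund. The Fosl2 and Jund windows did not reach the GENCODE starts, so they say nothing about the sequence there. The same letters occurred in 21.0% of 27025 RefSeq promoters. TATAAA began 33 bases upstream of the Fos start and at the RefSeq start of Junb, 30 bases upstream of its GENCODE start, and 14.2% of promoters held it. The full CRE, TGACGTCA, which contains TGACG, the AP-1 site TGACTCA and the CArG box, to which serum response factor binds, were found in none of the 6 windows. These motifs occurred in 1.88%, 5.17% and 1.57% of all promoters, respectively. Sites more than 250 bases before a RefSeq start, CArG boxes included, lay outside the search. A motif missing from a window can therefore still lie farther upstream of that gene. The matches are descriptions of letters and were not tested as binding sites.

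Total counts were 37063669 to 44789753 per heart. Levels are given as CPM, the reads of a gene scaled to a common library size with the trimmed mean of M values (TMM) over the 12 hearts. Lemd2 was at 31.9, 34.7 and 33.0 CPM in WT hearts 1 to 3, at 25.6, 25.1 and 24.8 CPM in KI/KI hearts 4 to 6, at 24.4, 25.1 and 25.3 CPM in floxed hearts 1 to 3, and at 6.64, 13.1 and 11.3 CPM among cKO hearts 4 to 6. Thus, Lemd2 was lowest in the cKO group, and cKO heart 4, which had the least, also differed from the other 11 hearts in sex-linked transcripts. Its 4 Y-linked genes summed to 0.0805 CPM and Xist was at 617 CPM, whereas Y-linked genes summed to 222 to 375 CPM elsewhere. Values without this heart are therefore given below for Fos, Junb, Fosb and Fosl2.

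Levels between genes were compared per kilobase of exon. By this measure, Jund was the most abundant member in every group, with 59.8% ± 0.837 (SD, n = 3) of the summed AP-1 signal in floxed hearts, 50.6% ± 6.07 in cKO hearts, 51.0% ± 4.75 in WT hearts and 48.5% ± 2.90 in KI/KI hearts. Jun followed, and the ranges of Jund and Jun did not overlap in any group. In floxed hearts the mean levels were 46.2 CPM per kb for Jund, 21.0 for Jun, 4.63 for Fosl2, 3.16 for Junb, 1.86 for Fos, 0.237 for Fosb and 0.0195 for Fosl1, and no neighbours in this order overlapped. In cKO hearts, Junb (11.9 CPM per kb), Fos (10.6) and Fosl2 (10.3) had overlapping ranges. In WT hearts Junb overlapped with Fosl2, and Fosl2 with Fos, and in KI/KI hearts Fosl2 overlapped with Fos.

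The summed AP-1 level was higher in each cKO heart than in any floxed heart, and the Fos genes made up more of it. The 7 members summed to 66.3, 83.5 and 81.5 CPM per kb in floxed hearts 1 to 3 and to 111.4, 121.1 and 120.7 CPM per kb in cKO hearts 4 to 6. The 4 Fos genes held 8.11%, 9.87% and 8.15% of that sum in floxed hearts, compared with 23.1%, 18.7% and 13.8% in cKO hearts. The cKO values lay above the floxed values, with the lowest share in cKO heart 6. In adult hearts, the Fos share overlapped between the genotypes and averaged 11.3% ± 2.08 (SD, n = 3) in WT and 11.5% ± 2.39 in KI/KI hearts. These shares are descriptions without a test.

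**Figure D1:**
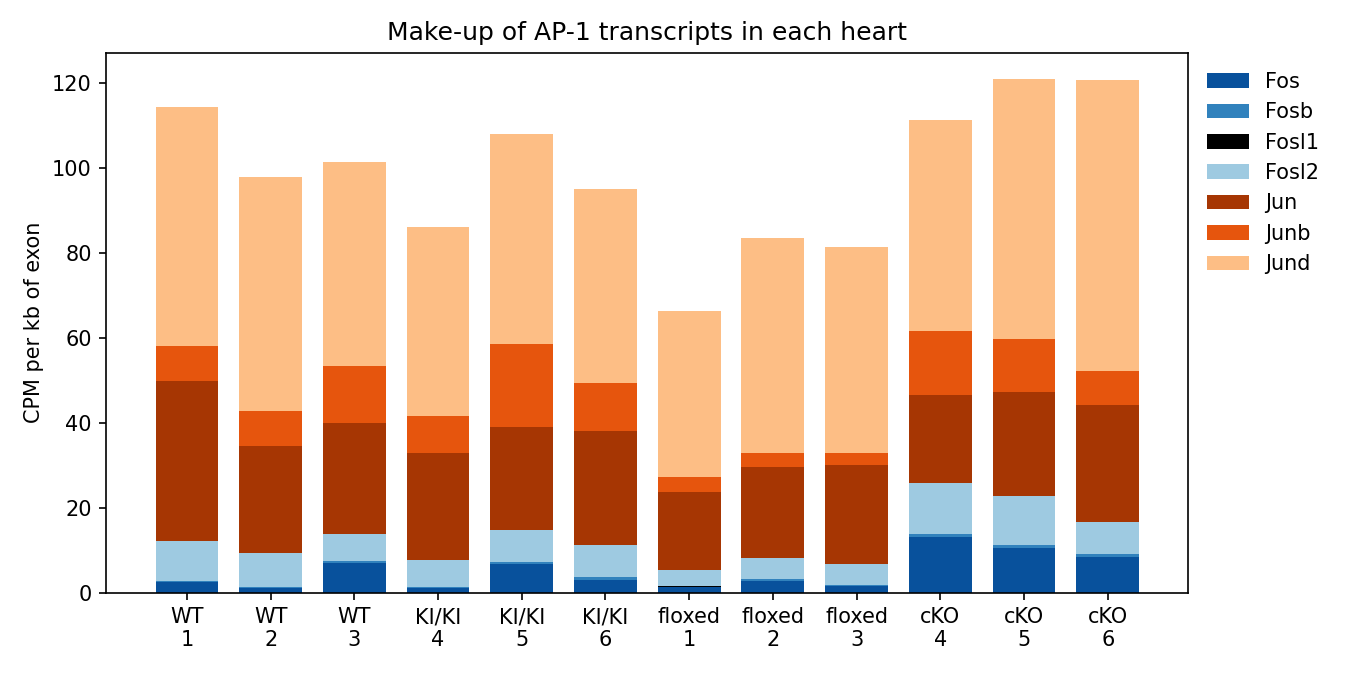
Stacked levels of the 7 AP-1 transcripts in each of 12 hearts, in CPM per kb of exon on a linear axis, with group and replicate number below each bar. Jund (pale orange) was the largest segment in every heart, and the Fos segments (blue) took 13.8% to 23.1% of the sum in cKO hearts against 8.11% to 9.87% in floxed hearts.

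At P1, 4 of the 6 testable members rose in cKO hearts compared with floxed hearts, each more than 2-fold: Fos 5.71-fold, Junb 3.77-fold, Fosb 3.21-fold and Fosl2 2.22-fold. Jun and Jund did not pass the test, and Fosl1 was near the detection limit. All genes tested gave 9.32% called higher, and 2.85% called higher with a fold above 2. The 4 members also had no overlap between the groups, with every cKO heart above every floxed heart, which held for 20.1% of all genes tested. In whole-heart RNA, a change in the number of cells of a type and a change in RNA per cell cannot be told apart.

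Fos encodes the prototype AP-1 subunit and lies on chromosome 12 from 85473890 to 85477273 (GRCm38, plus strand, 4 exons). It was at 2.63, 5.92 and 3.25 CPM in floxed hearts 1 to 3 and at 27.4, 22.0 and 17.7 CPM among cKO hearts 4 to 6. The lowest cKO heart was well above the highest floxed heart. The log2 fold change was 2.51 ± 0.31 (SE; adjusted p = 0.00688, edgeR quasi-likelihood test with Benjamini-Hochberg adjustment). Without cKO heart 4 it was 2.33 ± 0.31 (adjusted p = 0.0142). Fos kept its call in all 16 alternative analyses, but its largest adjusted p among them, 0.0498, was barely under the threshold.

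Junb encodes a Jun protein that often restrains Jun, and its single exon lies on chromosome 8 from 84974484 to 84978718 (minus strand). It was at 6.19, 5.65 and 5.31 CPM among floxed hearts and at 27.3, 22.6 and 14.6 CPM among cKO hearts. The floxed hearts lay close together, whereas the cKO hearts ranged widely. The log2 fold change was 1.92 ± 0.25 (SE; adjusted p = 0.00723), and without cKO heart 4 it was 1.69 ± 0.21 (adjusted p = 0.0135).

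Fosb, on chromosome 7 from 19302696 to 19310051 (minus strand, 4 exons), is a close relative of Fos. It was scarcer than Fos, at 0.703, 1.18 and 0.807 CPM among floxed hearts and at 3.32, 3.09 and 2.20 CPM among cKO hearts. The groups were separate, and the log2 fold change was 1.68 ± 0.28 (SE; adjusted p = 0.0129). Without cKO heart 4 it was 1.56 ± 0.31 (adjusted p = 0.0289).

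Fosl2, on chromosome 5 from 32135801 to 32157842 (plus strand, 4 exons), was the Fos gene with the most reads. It was at 25.7, 33.4 and 31.8 CPM among floxed hearts and at 77.5, 74.3 and 49.5 CPM among cKO hearts. The groups were separate, with cKO heart 6 below the others. The log2 fold change was 1.15 ± 0.19 (SE; adjusted p = 0.0132), and without cKO heart 4 it was 1.02 ± 0.19 (adjusted p = 0.0265).

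Of these 4 calls, 3 depended on single hearts. Without floxed heart 1, Fos alone remained called, with an adjusted p of 0.0761 for Fosb, 0.0769 for Fosl2 and 0.0512 for Junb. Without floxed heart 2, Fosl2 missed the threshold (adjusted p = 0.0514). Without cKO heart 5, Fosb and Fosl2 did (adjusted p = 0.0586 for both). The 4 genes stayed higher in cKO hearts in each of these fits. Over all genes, 3587, 4225 and 3870 had an unadjusted edgeR p under 0.05 in these fits, against 5306 in the main fit. The range of all genes called at the adjusted p with each heart left out is given in the last section.

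Jun and Jund carry most of the AP-1 signal of the heart and moved less. Jun (chromosome 4, 95049034 to 95052222, minus strand, 1 exon) was at 58.5, 68.4 and 74.5 CPM among floxed hearts and at 66.7, 78.8 and 87.9 CPM among cKO hearts. The groups overlapped, and the log2 fold change was 0.21 ± 0.12 (SE; adjusted p = 0.264). Jund (chromosome 8, 70698949 to 70700616, plus strand, 1 exon) was at 65.3, 84.6 and 81.0 CPM among floxed hearts and at 82.8, 102 and 114 CPM among cKO hearts. Here cKO heart 4 fell within the floxed range, and the log2 fold change was 0.37 ± 0.14 (SE; adjusted p = 0.107). When all 12 hearts shared 1 fit, Jund passed at nearly the same value (0.37, adjusted p = 0.0490). Heart 4 of the cKO group had the most Fos, Fosb, Fosl2 and Junb and the least Jun and Jund of its group. With each heart left out in turn, the log2 fold change ran from 0.11 to 0.30 for Jun. For Jund it ran from 0.26 to 0.48, and neither gene was called in any of these fits. Jund shares 877 exon bases with the antisense gene Gm11175, and since the strand setting of the counting was not given in the sources used here, reads of either gene could have entered its count.

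Fosl1 (chromosome 19, 5447547 to 5455946, plus strand, 4 exons) had 0, 0 and 3 counts in WT hearts, 2, 0 and 3 in KI/KI hearts, 1, 2 and 2 among floxed and 2, 2 and 4 among cKO hearts. With 3 counts as the floor, these levels are at or near the limit of detection, and Fosl1 failed the filter on low counts in both comparisons. Of its 1864 exon bases, 1163 are shared with Ccdc85b on the other strand, which is in the count table too. Since the strand setting of the counting was not given, the handling of reads in the shared bases could have altered the Fosl1 counts. A difference in Fosl1 was not detectable at these counts.

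**Figure D2:**
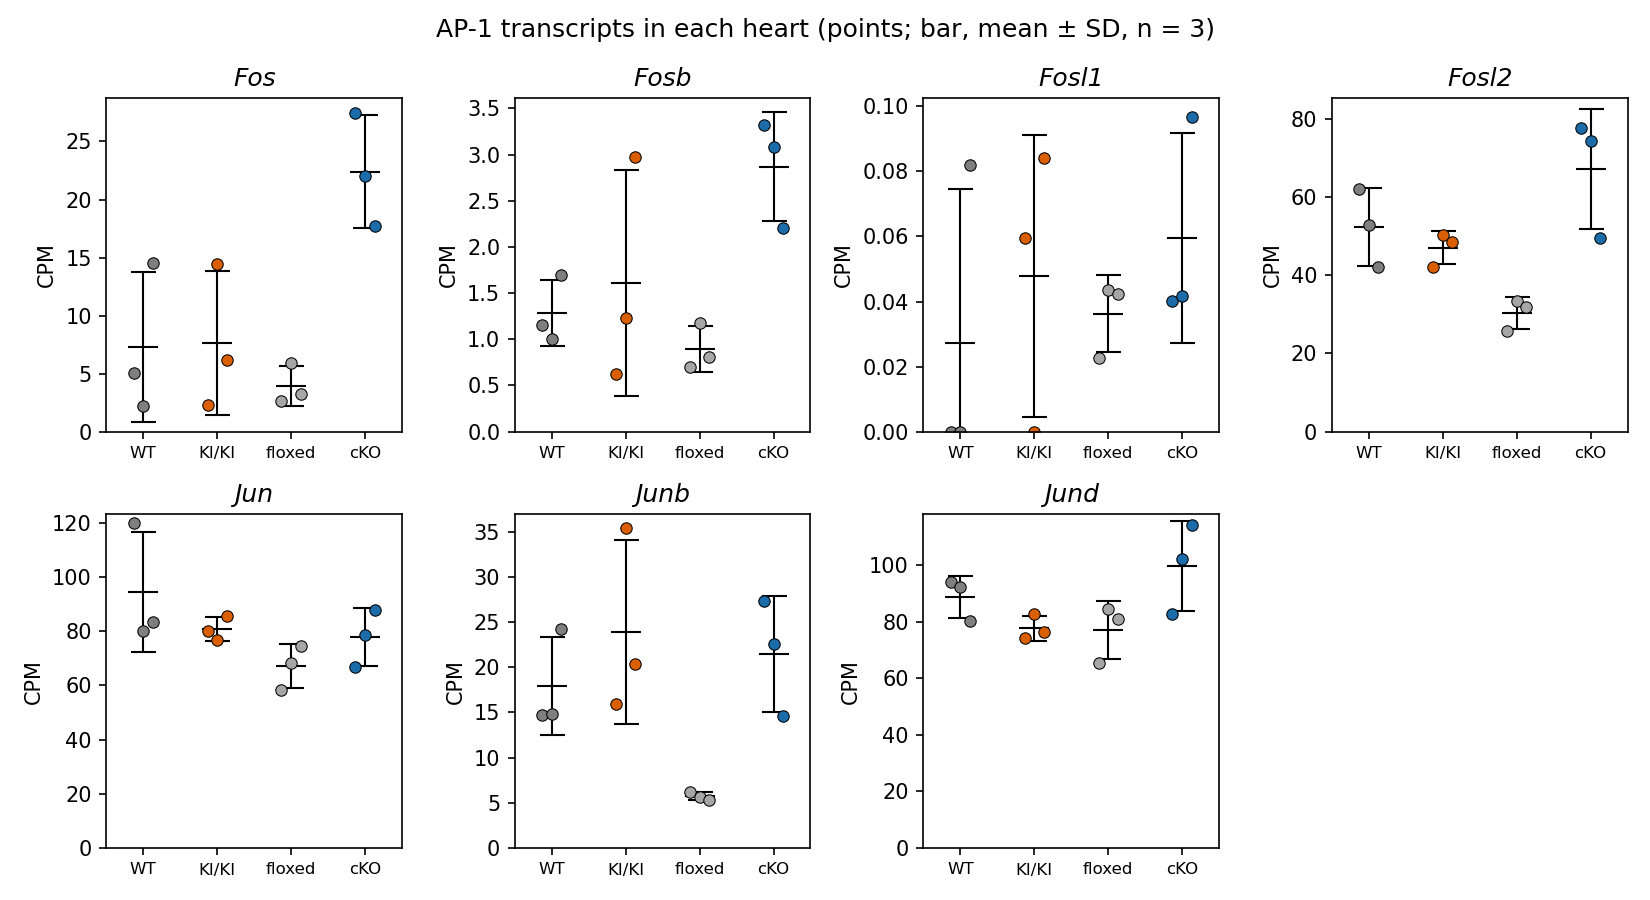
Level of each AP-1 transcript in CPM (linear axes starting at 0, a different scale per gene) in WT, KI/KI, floxed and cKO hearts, with points for hearts and bars for the mean ± SD of 3 hearts. Every cKO heart lies above every floxed heart for Fos, Fosb, Fosl2 and Junb, and all WT and KI/KI ranges overlap.

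In adult hearts, no AP-1 member was called in KI/KI compared with WT mice, and the groups overlapped for all 6 testable members. The log2 fold changes of Fos (0.08 ± 0.79 SE), Fosb (0.32 ± 0.55) and Junb (0.42 ± 0.34) had large errors. A change in these genes was therefore neither shown nor excluded. No gene of the 14592 tested passed the adjusted p of edgeR's quasi-likelihood test (0%), although 2363 genes had an unadjusted p under 0.05 and DESeq2 called 306 genes higher and 212 lower. The groups did not overlap for 22.0% of all genes. No tool or alternative called an AP-1 member in this comparison.

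Fos was at 5.07, 2.20 and 14.5 CPM in WT hearts 1 to 3 and at 2.32, 14.5 and 6.17 CPM in KI/KI hearts 4 to 6. One heart of each genotype was therefore high, WT heart 3 and KI/KI heart 5. The log2 fold change was 0.08 ± 0.79 (SE; adjusted p = 0.967), and it turned negative without KI/KI heart 5 (-0.79), WT heart 2 (-0.35) or WT heart 1 (-0.13). Junb was at 14.8, 14.9 and 24.2 CPM in WT hearts and at 15.9, 35.4 and 20.3 CPM in KI/KI hearts. The same pair of hearts had the highest Junb of their groups, and the log2 fold change was 0.42 ± 0.34 (SE; adjusted p = 0.538).

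Cell type markers differed between these adult hearts too. WT heart 3 had 100.3 CPM of summed lung markers, against 0.513 and 0.549 CPM in WT hearts 1 and 2, and without it the Fos log2 fold change was 1.11. KI/KI heart 5, the other heart high in Fos, had 0.724 CPM of lung markers, while KI/KI hearts 4 and 6 had 34.9 and 0.505 CPM. Macrophage and leukocyte markers summed to 368, 271 and 427 CPM in WT hearts 1 to 3 and to 449, 531 and 444 CPM in KI/KI hearts 4 to 6. Fibroblast markers summed to 2192, 1996 and 2410 CPM in WT hearts and to 2433, 4742 and 2905 CPM in KI/KI hearts. Neither sum overlapped between the genotypes, although WT heart 3 and KI/KI heart 4 were close in fibroblast markers (2410 and 2433 CPM). Of all single genes tested, 22.0% had no overlap between these groups. KI/KI heart 5 had the highest value of both sums. No marker was called by edgeR, but 4 of 10 macrophage and 3 of 8 fibroblast markers had an unadjusted p under 0.05. Of all 14592 genes tested, 2363 did. The part of these cells in the adult AP-1 levels was not tested.

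Fosb was at 1.15, 1.01 and 1.69 CPM in WT hearts and at 0.625, 1.23 and 2.98 CPM in KI/KI hearts, which gave a log2 fold change of 0.32 ± 0.55 (SE; adjusted p = 0.791). KI/KI heart 6 was the highest, and without it the value was -0.44. Fosl2 was at 62.1, 52.8 and 42.1 CPM in WT hearts and at 42.2, 50.3 and 48.6 CPM in KI/KI hearts, with a log2 fold change of -0.14 ± 0.14 (SE; adjusted p = 0.619). KI/KI hearts all fell inside the WT range.

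Jun was at 120.1, 80.0 and 83.6 CPM in WT hearts and at 80.1, 76.7 and 85.8 CPM in KI/KI hearts. WT heart 1 was higher than the rest, and the log2 fold change was -0.22 ± 0.15 (SE; adjusted p = 0.489). Jund was at 94.0, 92.2 and 80.4 CPM in WT hearts and at 74.1, 82.7 and 76.4 CPM in KI/KI hearts. Its log2 fold change of -0.18 ± 0.08 (SE) had an unadjusted p of 0.0478 and an adjusted p of 0.307, and KI/KI heart 5 overlapped with the WT range.

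**Figure D3:**
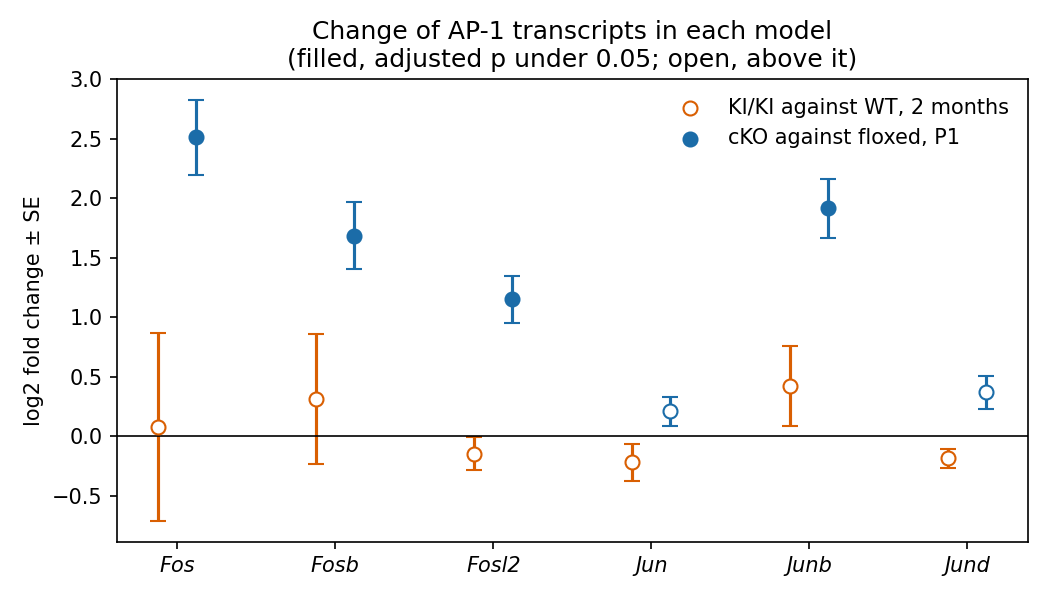
Log2 fold change ± SE of the 6 testable AP-1 members in KI/KI against WT hearts at 2 months (orange) and cKO against floxed hearts at P1 (blue), 3 hearts per group, with filled points for an adjusted p under 0.05. The 4 filled points run from 1.15 for Fosl2 to 2.51 for Fos, and no adult point is filled.

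Whether the P1 change differed from the adult change was tested in a fit over all 12 hearts. Fosl2 passed, with a P1 change greater than the adult change by 1.30 ± 0.26 (SE, log2; adjusted p = 0.0327), against 1.17% of all genes called in this direction. The difference was 2.43 ± 0.92 for Fos (adjusted p = 0.172), 1.50 ± 0.44 for Junb (adjusted p = 0.0974) and 1.37 ± 0.64 for Fosb (adjusted p = 0.264). It was 0.57 ± 0.18 for Jund (adjusted p = 0.114) and 0.44 ± 0.22 for Jun (adjusted p = 0.297). Thus, for Fos, Fosb and Junb a call at P1 and none in adults was not shown to be a difference between the models in the edgeR fit. Junb did pass in DESeq2 (1.52, adjusted p = 0.0116) and in edgeR without KI/KI heart 5 (1.91, adjusted p = 0.0387) or without cKO heart 6 (1.71, adjusted p = 0.0434), and its adjusted p ranged up to 0.204 over 17 alternatives. DESeq2 also called Jund. The Fosl2 call was itself lost in 8 of 12 fits that left out 1 heart: those without WT heart 1 (adjusted p = 0.0777), WT heart 2 (0.0890), KI/KI heart 4 (0.0734), KI/KI heart 6 (0.0818), floxed heart 1 (0.104), floxed heart 2 (0.0622), cKO heart 4 (0.0516) and cKO heart 5 (0.0870). The models also differ in age, allele and tissue range of the Lemd2 defect, which cannot be told apart.

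Between the control groups, 3 members were lower in floxed P1 hearts than in WT adult hearts. Junb differed most, by a log2 fold change of -1.65 ± 0.33 (SE; adjusted p = 0.00103), followed by Fosl2 (-0.79 ± 0.18, adjusted p = 0.00290) and Jun (-0.49 ± 0.16, adjusted p = 0.0160), against 31.0% of all genes called lower. Fos (-0.90 ± 0.68), Fosb (-0.53 ± 0.50) and Jund (-0.21 ± 0.13) did not pass (adjusted p = 0.266, 0.372 and 0.173). Junb in cKO hearts (14.6 to 27.3 CPM) overlapped with WT adult hearts (14.8 to 24.2 CPM), and Fos in cKO hearts (17.7 to 27.4 CPM) exceeded every heart of the other 3 groups. The scaling weighed on this comparison: with library totals the median log2 fold change of all genes was 0.45 in place of 0.04, only Junb stayed called (-1.26, adjusted p = 0.00819) and Jund turned to 0.20. Without WT heart 3, Fos turned to 0.12. Without WT heart 1 or without floxed heart 1, Jun lost its call. Age could not be told apart from mouse line and sample set.

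The members differed in how much they varied between hearts. The SD of log2 CPM over the 12 hearts, centred on each age, was 1.27 for Fos, 0.81 for Fosb, 0.79 for Junb, 0.47 for Fosl2 and 0.21 for both Jun and Jund. Among 15728 genes, those with the profile nearest to Fos were Gpr39, Pak3, Egr1, Lrrc7 and Vgll3, with a root mean square difference of 0.565 to 0.626 log2 units against a median of 1.24 over all genes. Junb ranked 6 and Fosb 20 in this order. Nearest to Fosb were Serp2, Gm19705, Spry1, Gareml and Mfsd2a (0.380 to 0.438). Profiles were centred on age and not on group, so nearness includes the P1 difference between cKO and floxed hearts. Some neighbours were near the floor in adults: Lrrc7 had 0, 0 and 2 counts in WT and 0, 5 and 3 in KI/KI hearts. Mfsd2a had 0, 1 and 0 counts in WT and 0, 1 and 3 in KI/KI hearts. Others were not, such as Vgll3 (99 to 535 counts) and Spry1 (923 to 1746). Egr1, a zinc finger immediate early gene, was at 18.4, 24.0 and 58.0 CPM in WT hearts and at 21.3, 85.2 and 52.7 CPM in KI/KI hearts. It was highest in the same pair of adult hearts as Fos, which its choice as a near profile over these hearts favours. It was at 28.0, 26.1 and 39.0 CPM among floxed hearts and at 116.5, 105.9 and 103.5 CPM among cKO hearts.

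Other immediate early genes rose with the AP-1 members at P1. Of 39 tested, 22 (56.4%) were called higher and 1 lower in cKO hearts, against 9.32% and 7.57% of all genes, and the list median was a log2 fold change of 1.05 against -0.0043 over all genes. This list and those below were chosen with earlier results of these data known. Their shares are therefore descriptions and no independent evidence. Ctgf, Cyr61, Egr2 (2.65 ± 0.24 SE, adjusted p = 0.00481), Egr3 (2.55 ± 0.23, adjusted p = 0.00481), Egr1 (1.81 ± 0.16, adjusted p = 0.00481) and Plk2, which encodes a polo-like kinase (1.43 ± 0.11, adjusted p = 0.00481), were among them. Ctgf and Cyr61 encode matricellular proteins and changed by 3.46 ± 0.40 and 2.95 ± 0.29. The gene called lower was Rgs2, which encodes a regulator of G protein signalling (-0.93 ± 0.23). Ctgf and Rgs2 were named after their values were seen. Without cKO heart 4, 17 genes of this list were called higher. Without floxed heart 1 there were 9, without floxed heart 2 there were 13 and without cKO heart 5 there were 12. In these fits 5333, 3587, 4225 and 3870 of all genes had an unadjusted edgeR p under 0.05, against 5306 in the main fit. The list counts use the adjusted p, so their fall cannot be set against these all-gene numbers. The range of all genes called at the adjusted p with each heart left out is given in the last section. In adult hearts none of 39 was called by edgeR (9 at an unadjusted p under 0.05, as were 2363 of all 14592 genes). The median was -0.06.

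Among the bZIP proteins that can pair with Fos or Jun, 7 of 16 tested genes (43.8%) rose and none fell in cKO hearts, with a median of 0.57, against 9.32% of all genes called higher and 7.57% lower. Atf3, a stress-induced repressor that pairs with Jun proteins, rose from 3.90, 7.97 and 7.07 CPM among floxed hearts to 33.7, 27.0 and 32.3 CPM among cKO hearts (log2 fold change 2.29 ± 0.25 SE, adjusted p = 0.00582). Mafk, a small Maf protein that pairs with other bZIP proteins, rose by 1.41 ± 0.17 (adjusted p = 0.00654). Nfil3 (0.70 ± 0.13, adjusted p = 0.0152) and Atf4, the effector of the integrated stress response (0.64 ± 0.10, adjusted p = 0.0108), rose less, and Maff, Jdp2 and Mafg were the other genes called. Atf3 and Maff are also in the immediate early list. Without cKO heart 4 the count was 7, and without floxed heart 1 it was 1. Without floxed heart 2 it was 4 and without cKO heart 5 it was 2. Over all genes, 5333, 3587, 4225 and 3870 had an unadjusted edgeR p under 0.05 in these fits, against 5306 in the main fit. Here too the list counts use the adjusted p and cannot be set against these numbers. In adult hearts 0 of 17 were called by edgeR (1 at an unadjusted p under 0.05, as were 2363 of all 14592 genes). The median was 0.05.

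Of the genes known as AP-1 targets, 16 of 31 tested (51.6%) rose and none fell in cKO hearts, with a median of 0.92, against 9.32% of all genes called higher and 7.57% lower. Hbegf, a growth factor of the EGF family, was at 13.9, 12.9 and 15.6 CPM among floxed hearts and at 39.3, 37.5 and 31.8 CPM among cKO hearts (1.36 ± 0.13 SE, adjusted p = 0.00481). Tnc, the matrix protein tenascin C, rose by 1.61 ± 0.19 (adjusted p = 0.00654), Lif, a cytokine, by 1.52 ± 0.21 (adjusted p = 0.00843), and Itga5, the fibronectin receptor subunit, by 0.81 ± 0.10 (adjusted p = 0.00675). Several of these genes also respond to other transcription factors. Without cKO heart 4 the count was 13, and without floxed heart 1 it was 2. Without floxed heart 2 it was 5, without floxed heart 3 it was 10 and without cKO heart 5 it was 6. Over all genes, 5333, 3587, 4225, 5214 and 3870 had an unadjusted edgeR p under 0.05 in these fits, against 5306 in the main fit. As above, the list counts use the adjusted p and cannot be set against these numbers. In KI/KI hearts 23 of 31 had values above 0 and the median was 0.62 against 0.0023 over all genes. None was called by edgeR (11 at an unadjusted p under 0.05, as were 2363 of all 14592 genes).

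**Figure D4:**
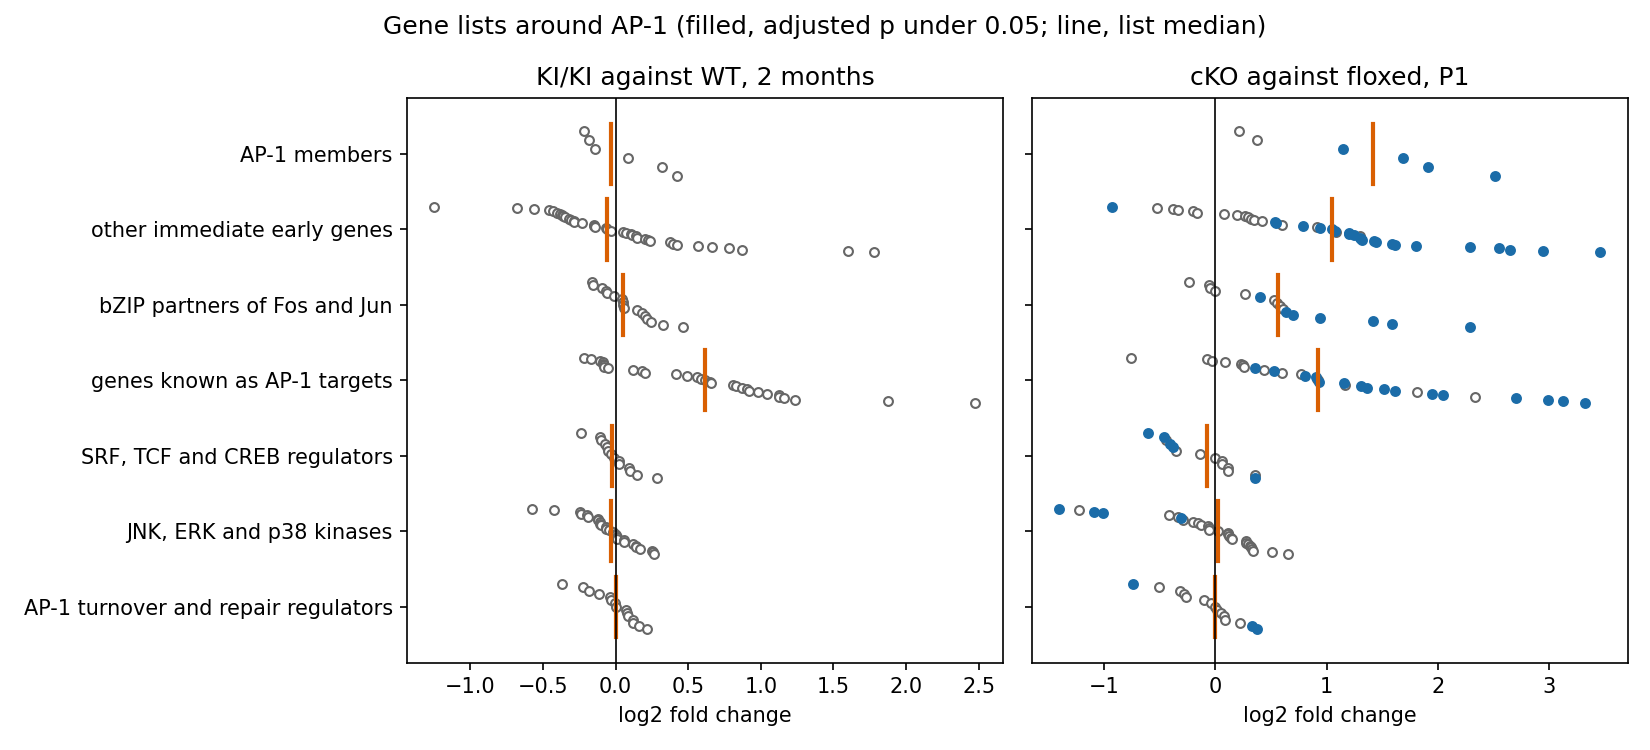
Log2 fold change of each tested gene in the AP-1 family and in 6 lists around it, for KI/KI against WT hearts (left) and cKO against floxed hearts (right), with a filled point for an adjusted p under 0.05 and an orange line at each list's median. On the right the medians of the AP-1 members (1.42), the other immediate early genes (1.05) and the known targets (0.92) lie above 0, and on the left no point is filled.

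Few genes for regulators upstream of AP-1 were called higher. None of 29 JNK, ERK and p38 kinase genes rose in cKO hearts, against 9.32% of all genes called higher. The list median was 0.02, and 15 of 29 values were above 0. Of the same list 4 genes fell, against 7.57% of all genes called lower. These were Map2k6, an activator of p38 (-1.40 ± 0.20 SE, adjusted p = 0.00869), Rps6ka5, a kinase downstream of ERK and p38 (-1.09 ± 0.12, adjusted p = 0.00543), Mapk10, a Jun N-terminal kinase (-1.01 ± 0.13, adjusted p = 0.00709), and Map2k5, an activator of ERK5 (-0.31 ± 0.08, adjusted p = 0.0438). Transcript levels give no measure of the activity of these kinases.

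Of 14 genes for SRF cofactors, TCF, CREB and MEF2 proteins, 1 rose (7.14%) and 4 fell, against 9.32% of all genes called higher and 7.57% lower. The genes that fell were Mef2a (-0.61 ± 0.07 SE, adjusted p = 0.00634), Mef2d (-0.46 ± 0.07, adjusted p = 0.0106), Mef2c (-0.41 ± 0.08, adjusted p = 0.0222) and Mkl2, an actin-regulated SRF cofactor (-0.38 ± 0.09, adjusted p = 0.0336). The related cofactor gene Mkl1 rose (0.36 ± 0.09, adjusted p = 0.0432), and it was named after its value was seen. Of 15 genes for proteins that control the turnover of AP-1 mRNA or protein, 2 rose (13.3%) and 1 fell, shares near those of all genes (9.32% and 7.57%). Fbxw7, part of the ubiquitin ligase that binds phosphorylated Jun, was at 57.3, 56.8 and 57.9 CPM among floxed hearts and at 33.1, 31.2 and 38.8 CPM among cKO hearts (-0.74 ± 0.09, adjusted p = 0.00716). Zfp36l2, whose protein promotes decay of AU-rich mRNAs, and Senp2, a SUMO protease, rose by 0.38 ± 0.09 and 0.33 ± 0.08 (adjusted p = 0.0317 and 0.0336). In adult hearts edgeR called none of the genes in these 3 lists. An unadjusted p under 0.05 was found for 4 of 28 kinases, 1 of 14 factors and 1 of 15 turnover genes. Of all 14592 genes, 2363 had such a p.

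Markers of cell types moved with the AP-1 members at P1. Macrophage and leukocyte markers rose in 5 of 10 genes, and their sum was 119 to 143 CPM among floxed and 159 to 288 CPM among cKO hearts. Fibroblast markers rose in 3 of 8 genes, with a sum of 6313 to 7119 CPM among floxed and 8467 to 9221 CPM among cKO hearts. Cardiomyocyte markers fell in 6 of 13 genes, with a sum of 61164 to 69235 CPM among floxed and 51825 to 57512 CPM among cKO hearts. Smooth muscle and pericyte markers rose in 3 of 6 genes and fell in 1, endothelial markers rose in 2 of 7 and skeletal muscle markers rose in 2 of 4 tested and fell in 1. Among B and T cell markers 1 of 4 tested rose. None of 5 neutrophil and 4 lung markers was called by edgeR (2 and 0 at an unadjusted p under 0.05, against 5306 of all 15317 genes). Among all genes, 9.32% were called higher and 7.57% lower. The sums of these lists were 1809 to 3031 CPM for smooth muscle, 1626 to 2063 CPM for endothelial and 654 to 833 CPM for skeletal muscle markers in cKO hearts, against 1400 to 1780, 1610 to 1723 and 914 to 1078 CPM in floxed hearts, so the skeletal muscle sum was lower although 2 of its genes rose. The skeletal muscle genes tested were Myh1, Tnnt3, Acta1 and Ckm, whereas Myh4, Myh2, Myod1 and Myog failed the filter on low counts. The skeletal muscle sum was therefore not read as a measure of skeletal muscle cells. The defining markers of cardiomyocytes were present in all 12 hearts. Lung markers varied between P1 hearts too. They summed to 28.7, 44.6 and 2.44 CPM in floxed hearts 1 to 3 and to 20.4, 3.44 and 5.05 CPM in cKO hearts 4 to 6. The part of these cell types in the AP-1 levels was not tested.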

How the data were processed

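Poly(A) RNA of 12 mouse hearts was sequenced with 75-cycle single-end reads. Per the submitters' processing notes and the study's methods, the authors used Trim Galore for trimming, STAR 2.7.2b for alignment to mm10 and SAMtools 1.9, and counted reads per gene with HTSeq. The deposited values are raw counts, and strand handling was not given in the sources used here. Groups were taken from the sample labels. Counts were tested with edgeR 4.0.16 (R 4.3.3): TMM scaling, filterByExpr, robust two-sided quasi-likelihood tests and Benjamini-Hochberg adjustment over all genes tested, with calls at an adjusted p under 0.05. DESeq2 1.42.0 and limma-voom 3.58.1 were alternatives. The code was checked on simulated counts. P-values measure the spread between 3 hearts per group. Exon lengths and positions came from GENCODE M21 (GRCm38), and promoters from RefSeq. The members and gene lists were chosen with earlier results of these data known. Named were all members, Lemd2, up to 4 called genes per list and comparison by adjusted p, and the 5 genes nearest in profile to each of the 2 most variable members; the comparison of the control groups is given for members alone. The cell type lists are described by counts and sums, and the skeletal muscle genes are named by whether they passed the filter.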

Additional observations from a re-analysis of the deposited data

Results flagged for a closer look

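In edgeR's test over all 12 hearts, the change in cKO against floxed hearts was compared with that in KI/KI against WT hearts. Of 15729 genes tested, 184 differed in the positive direction (1.17%) and 199 in the negative direction. The AP-1 family and the 6 lists around it held 13 of them. Positive were 1 of 6 AP-1 members (16.7%), 2 of 18 bZIP partners (11.1%), 1 of 32 targets (3.12%) and 7 of 39 immediate early genes (17.9%). Negative were 1 of 14 SRF, TCF and CREB regulators, 1 of 29 kinases and 1 of 15 turnover genes. The AP-1 member was Fosl2, with a difference of 1.30 on the log2 scale (1.15 at P1 and -0.14 in adults). The bZIP partners Atf3 and Mafk differed by 2.25 and 1.21, and the target Hbegf by 1.45. Of 7 immediate early genes called, Atf3 included, Cyr61 differed by 2.56, Ier5 by 1.40, Btg2 by 1.22 and Plk3 by 1.13, and the others were Ctgf (2.60) and Zfp36 (1.71), both named after their values were seen. The differences were negative for Mef2c (-0.54), Mapk10 (-0.76) and Fbxw7 (-0.74), which fell at P1. Adjusted p ranged from 0.0115 for Cyr61 to 0.0464 for Zfp36, with 3 hearts in each of the 4 groups.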

How the results depend on the processing

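No paired analysis was possible because WT and KI/KI hearts, and floxed and cKO hearts, share no replicate number. At P1, the number of AP-1 members called higher was 4 in the main analysis and 1 to 4 when each heart was left out in turn. The numbers of all genes called higher and lower were 1427 and 1160. They became 437 and 273 with a fold above 2, 906 and 712 with Y-linked expression as a covariate and 2179 and 1934 with all 12 hearts in 1 fit, and they ranged from 86 to 1942 higher and 74 to 1521 lower with each heart left out. In adult hearts, no gene was called in the main analysis, 306 higher and 212 lower with DESeq2, 33 and 15 with all hearts in 1 fit, and 0 to 40 and 0 to 16 with each heart left out. Fos in adults turned to -0.13 without WT heart 1, -0.35 without WT heart 2 and -0.79 without KI/KI heart 5, the lowest value, and was 1.11 without WT heart 3, the highest. Fosb in adults ranged from -0.44 without KI/KI heart 6 to 0.67 without KI/KI heart 4. For the difference between the models, 184 and 199 genes became 752 and 573 with DESeq2, which called 3 members (Fosl2, Junb and Jund), and 104 and 497 with library totals, an alternative chosen after seeing the data, as was edgeR's older quasi-likelihood fit. Without a filter 116 were higher. With each heart left out, 25 to 487 were higher, 26 to 437 lower, and 0 to 2 members were called. Between the control groups, library totals gave 8300 higher and 2779 lower genes in place of 5113 and 4871 and 1 member in place of 3, with Jund at 0.20, and Fos ranged from -1.33 without WT heart 2 to 0.12 without WT heart 3. The cause of these changes was not tested. Low counts limited Fosl1.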
